A study of Mus musculus with 19 samples.

Results

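The genes described here encode the proteins of the cytosolic ribosome. They were chosen by symbol, as rows of both count tables named Rpl or Rps followed by a number, a stalk letter or "a", without the S6 kinases. The rule found 93 of 54352 symbols. Of these, 43 encode proteins of the large subunit, 31 proteins of the small subunit and 3 proteins of the stalk, and these 77 are called subunit genes below. A further 15 are paralogs or retrocopies of subunit genes, and 1, Rps19bp1, encodes a protein that binds a ribosomal protein and is not part of the ribosome. The symbols of all 93 matched 1 gene each in GENCODE M21.

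The ribosome reads messenger RNA into protein. Its small subunit decodes the message, its large subunit forms the peptide bonds, and the stalk recruits the factors that drive elongation. Messenger RNAs of ribosomal proteins are among the most abundant in growing cells, and they usually begin with a run of pyrimidines, the TOP motif, through which mTOR signalling controls their translation. Embryonic stem cells divide fast and make many ribosomes. When ribosome assembly is disturbed, free ribosomal proteins can bind Mdm2 and so stabilise p53.

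RNA with poly(A) tails was measured with Smart-seq2, a full-length cDNA method without molecular identifiers, in mouse embryonic stem cells of the line TT2, grown on inactivated embryonic fibroblasts (feeders). In 2D culture, 2 untreated control libraries were compared with 2 libraries of a culture treated with pladienolide B (PlaB, 20 nM, 6 h), all taken 54 h after seeding. PlaB binds the SF3B complex of the spliceosome. Blastoids, stem cell aggregates that resemble the blastocyst, gave 3 libraries on each of days 1 to 5. The labels list all blastoids as PlaB-treated for 6 h too, so there was no untreated blastoid group, and all libraries came from 1 cell line. Nothing says that replicates were separate cultures, so the p-values measure the spread between these libraries, which may be technical.

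Libraries held between 2515381 and 7607021 counts. All 12 pluripotency markers examined had counts in every group, and Cdx2, a trophectoderm marker, was at 0 counts in both 2D groups and on day 2. The summed level of 20 fibroblast markers was 3599 and 4378 CPM (counts scaled to one common library total) in the control libraries, 7279 and 9182 CPM after PlaB, 854 to 1524 CPM on day 1 and 367 to 465 CPM on day 5. Tagln and S100a4 were at 0 in all blastoid groups. Libraries also differed in base composition. A GC index, the median deviation of genes over 54% GC minus that of genes under 42% GC on the log2 scale, was -1.35 and -1.13 in control and 0.41 and 0.24 after PlaB. It lay at 0.65 to 1.44 on day 1, at 0.20 to 0.38 on day 2, at -1.52 to -0.56 on day 3, at 0.42 to 0.69 on day 4 and at -0.82 to 0.23 on day 5. Replicate 3 of day 3 stood apart, with 13.5% of its counts from mitochondrially encoded genes, and values without it are given beside the results that use day 3.

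Several paralogs behaved differently from the subunit genes they resemble, so the start of their coding sequences is shown first (bases 1 to 72 from the start codon, GENCODE M21, GRCm38, coding strand). Capitals mark the bases that differ within each pair. Rps4l, a retrocopy of the X-linked small-subunit gene Rps4x, and Rpl10l, a retrocopy of the X-linked large-subunit gene Rpl10, have no introns.
Rps4x: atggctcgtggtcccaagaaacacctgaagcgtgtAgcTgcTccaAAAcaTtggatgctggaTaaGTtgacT
Rps4l: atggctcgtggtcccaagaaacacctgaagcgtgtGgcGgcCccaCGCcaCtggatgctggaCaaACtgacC
Rpl10: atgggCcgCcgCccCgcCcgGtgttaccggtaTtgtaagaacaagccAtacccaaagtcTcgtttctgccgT
Rpl10l: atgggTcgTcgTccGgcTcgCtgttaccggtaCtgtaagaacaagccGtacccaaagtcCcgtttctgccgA
Rps27: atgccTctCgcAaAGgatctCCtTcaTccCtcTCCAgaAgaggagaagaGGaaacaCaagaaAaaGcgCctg
Rps27l: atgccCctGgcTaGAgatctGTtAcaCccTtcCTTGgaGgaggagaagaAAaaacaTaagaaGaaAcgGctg
Rpl36a: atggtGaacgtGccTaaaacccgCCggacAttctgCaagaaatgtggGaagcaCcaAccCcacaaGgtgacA
Rpl36al: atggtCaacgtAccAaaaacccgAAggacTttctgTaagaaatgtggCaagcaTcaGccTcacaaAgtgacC

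Over the whole aligned coding sequence, Rps4l was identical to Rps4x at 79.9% of bases, Rpl10l to Rpl10 at 84.7%, Rps27l to Rps27 at 76.2% and Rpl36al to Rpl36a at 87.7%. Both retrocopies had more G and C than their parents in the coding sequence, with 61.3% in Rps4l against 47.7% in Rps4x and 58.9% in Rpl10l against 51.1% in Rpl10. Rps27rt, a further copy of Rps27 without introns, was identical to it over the whole coding sequence (100%), so counts of these 2 genes are uncertain. Many ribosomal protein genes have processed copies elsewhere in the genome. In 41 of the 77 subunit genes, more than 50% of the 50-base stretches of the main transcript also occurred in another annotated gene, and how reads that fit several genes were counted is not given in the sources used here.

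Exons of other genes also overlap some of these loci. In 7 subunit genes, less than 50% of the main transcript lay outside the exons of other genes. These were Rpl13a, Rpl23a, Rpl24, Rpl30, Rpl35, Rps10 and Rps25, named after their values were seen. Their median level over all libraries was 21.5 CPM per kilobase of the main transcript (range 1.28 in Rps10 to 1064 in Rps25), against 1298 CPM per kilobase (range 223.6 to 9643) in the other subunit genes. Rpl24, a large-subunit gene (28.5% outside other exons), had 155 counts in all libraries together, and Rps10, a small-subunit gene (36.4%), had 116. The read-through models that overlap them, Gm28037 and RPS10-NUDT3, were at 0 counts. Rps25 and Rpl30 (263.4 CPM per kilobase) lay within the range of the other subunit genes. Whether the overlaps lowered the counts was not tested.

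All 93 genes together took between 6.64% and 12.5% of the counts of a library. The share was 9.37% and 8.97% in control cells and 10.2% and 9.54% after PlaB. On day 1 of blastoid culture it was 7.05%, 7.65% and 7.56%, below all 2D libraries. Day 2 libraries had 9.98%, 9.32% and 9.00%, and day 3 libraries 12.0%, 11.4% and 6.64%. In day 4 libraries the share was 12.5%, 9.49% and 11.9%, and in those of day 5 8.59%, 11.9% and 10.6%. Day 1 overlapped with no other group except through replicate 3 of day 3, the library with the high mitochondrial share. Counting error was small beside these differences: the lowest day 1 share had a 95% Wilson interval from 7.03% to 7.07%, which covers counting error only, since amplified reads without molecular identifiers are not independent molecules. In these bulk samples fewer cells of a type and less RNA per cell cannot be told apart.

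**Figure D1:**
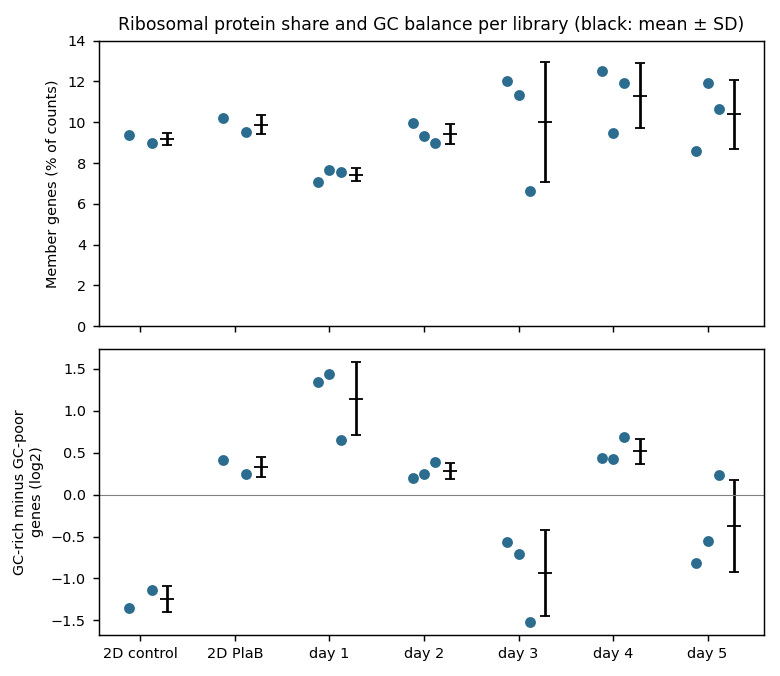
Upper panel: percent of each library's counts in the 93 genes. Lower panel: GC index of each library (log2). Points are libraries and black bars the mean ± SD of each group (n = 2 in 2D, n = 3 per blastoid day). The 3 day 1 libraries lie between 7.05% and 7.65% with the highest group mean of the GC index, and replicate 3 of day 3 lies at 6.64%.

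The 2D comparison set PlaB-treated cultures against control, and splicing itself was not measured here. The genes did not shift as a set: their median log2 fold change was 0.08, against 0.00 over all 11183 genes tested. Single genes went in both directions, as among all genes tested. Of 90 tested, 32 rose, 19 fell and 39 did not pass the threshold of 0.05 on the adjusted p (edgeR quasi-likelihood test). Over all genes tested 25.9% rose and 25.8% fell. In the large subunit 17 of 43 rose and 8 fell, and in the small subunit 8 of 30 rose and 9 fell. The middle 50% of the 90 genes lay between -0.23 and 0.90 on the log2 scale, and that of all genes between -0.69 and 0.80.

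The rises included large and small subunit genes and part of the stalk. Rplp0 encodes the base of the stalk (chromosome 5, 115559467 to 115563727, 6 introns). It stood at 612 and 757 CPM in control and at 3385 and 2981 CPM after PlaB (CPM scaled over all 19 libraries, as below). Rpsa encodes a small-subunit protein that also serves as the laminin receptor (chromosome 9, 120127689 to 120132369) and stood at 368 and 410 CPM against 1719 and 1420 CPM. Both genes are among the largest rises, so a gap between their groups adds nothing to the test. The log2 fold changes were 2.22 ± 0.13 (SE; adjusted p = 3.17e-16) for Rplp0 and 2.01 ± 0.13 (adjusted p = 5.40e-15) for Rpsa. The large-subunit genes Rpl13 (2.13 ± 0.13), Rpl8 (2.04 ± 0.14) and Rpl18 (1.75 ± 0.13) rose to a like degree, with adjusted p-values of 2.30e-15, 7.83e-14 and 1.48e-13. With the GC trend over all genes removed, the changes were 1.78 for Rplp0, 1.87 for Rpsa, 1.08 for Rpl13, 0.88 for Rpl8 and 1.33 for Rpl18.

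The other stalk genes, Rplp1 and Rplp2, which form the flexible dimers on Rplp0, did not follow it. Rplp1 stood at 1350 and 1218 CPM in control and at 1549 and 1581 CPM after PlaB (log2 fold change 0.28 ± 0.12, adjusted p = 0.0469), and Rplp2 at 1051 and 1002 CPM against 1012 and 1060 CPM (0.01 ± 0.12, adjusted p = 0.946). The call for Rplp1 was lost when any 1 of the 4 libraries was left out (adjusted p 0.0808 to 0.389). With the GC trend removed both genes fell, Rplp1 by 0.80 and Rplp2 by 0.76 on the log2 scale.

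Falls were smaller than rises. Rps25, a small-subunit gene that shares much of its exons with Trappc4, fell by 0.70 ± 0.12 on the log2 scale (adjusted p = 1.07e-05), from 1616 and 1385 CPM to 912 and 934 CPM. Rpl32, the gene with the highest level per kilobase of all 93, fell by 0.61 ± 0.12 (adjusted p = 4.50e-05), from 6698 and 6104 CPM to 3983 and 4407 CPM. Both were named for the size of their falls, so a gap between their groups follows from that choice. Rpl35a, Rps29, Rpl30 and Rps15a fell by between 0.52 and 0.61. The fall of Rpl30 was lost without replicate 1 of the control (-0.36, adjusted p = 0.122), and that of Rps15a with the GC trend removed (-0.20, adjusted p = 0.188). Without replicate 1 of the control 10 of the 90 genes fell, in place of 19. After removal of the GC trend 28 rose and 27 fell, of which 25 and 13 were the same genes. The fibroblast markers, at higher levels after PlaB (14 of 18 tested rose), moved with these changes, and their part in the result was not tested.

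**Figure D2:**
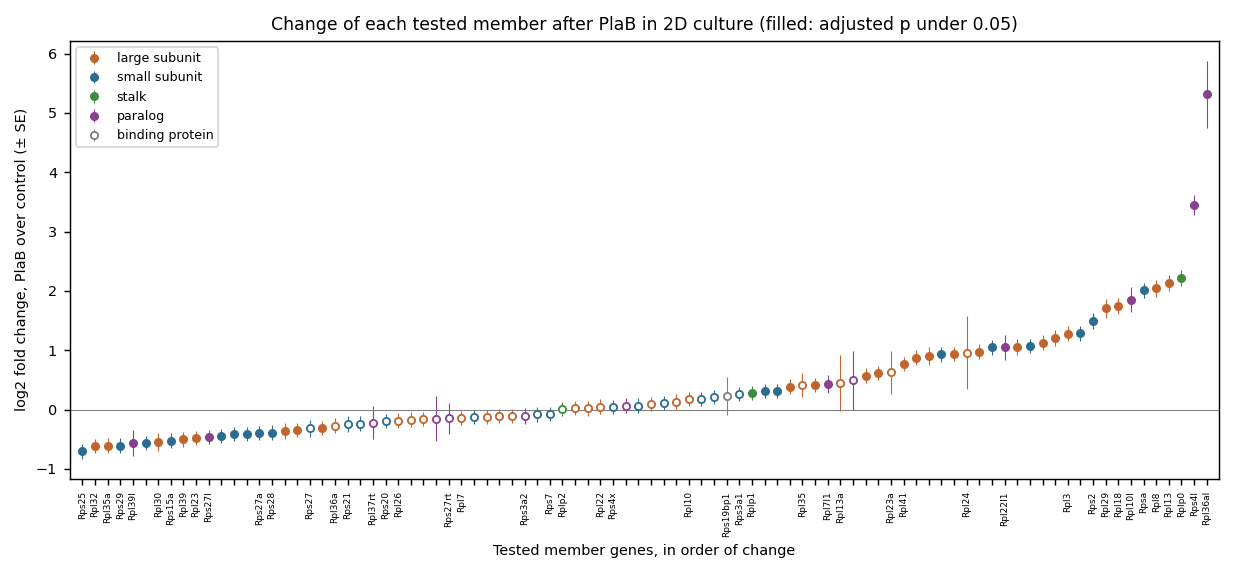
Log2 fold change of each of the 90 tested genes after PlaB in 2D culture (± SE, n = 2 libraries per group), in order of size and coloured by class. Filled points passed an adjusted p of 0.05, and only genes named in the text carry labels. The falls end at -0.70 (Rps25), while the rises reach 2.22 in the stalk gene Rplp0 and 5.31 in the paralog Rpl36al.

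The largest rises were those of paralogs. Rps4l (chromosome 6, 148354656 to 148355598, annotated as a transcribed processed pseudogene, within no exon of another gene) had 284 and 362 counts in control and 2506 and 1940 counts after PlaB. In CPM these were 72.4 and 97.7 against 1083 and 767, a rise of 3.44 ± 0.17 on the log2 scale (adjusted p = 3.85e-14), or of 2.17 with the GC trend removed. Its parent Rps4x did not pass the test, at 2704 and 2667 CPM against 2973 and 2591 CPM (0.05 ± 0.12, adjusted p = 0.753). Counts of Rps4l were 2.68% and 3.66% of those of Rps4x in control and 36.4% and 29.6% after PlaB.

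Rpl36al, a paralog of the X-linked gene Rpl36a (chromosome 12, 69182731 to 69184083, 1 intron), had 0 and 5 counts in control and 80 and 53 counts after PlaB. The fitted log2 fold change was 5.31 ± 0.57 (adjusted p = 3.72e-09), and its size depends on the few control counts. In every blastoid library the gene had 15 counts or fewer, so it was not tested between blastoid days. Only 36.9% of its main transcript lies outside the exons of Gm49383, which was at 0 counts, so the level of Rpl36al is uncertain. Rpl36a itself stood at 602 and 509 CPM in control and 474 and 450 CPM after PlaB (adjusted p = 0.0769).

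Rpl10l, a retrocopy known for its role in the male germ line, rose from 20.4 and 24.3 CPM to 83.8 and 77.8 CPM (1.85 ± 0.21, adjusted p = 2.69e-09). Its parent Rpl10, which helps join the subunits, stood at 0.17 ± 0.12 on the log2 scale (adjusted p = 0.224). Rpl22l1, the paralog of Rpl22, rose from 31.9 and 26.2 CPM to 63.9 and 56.9 CPM (1.05 ± 0.21, adjusted p = 9.20e-05), and Rpl22 had a change of 0.04 ± 0.13 (adjusted p = 0.796). Rpl7l1, a distant relative of Rpl7 that acts in ribosome assembly, had a change of 0.43 ± 0.15 (adjusted p = 0.0154). That call was lost without replicate 1 of either group (adjusted p = 0.307 without the control library, 0.252 without the PlaB library).

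Other paralogs went the other way. Rps27l, a paralog of Rps27 known as a p53 target, fell by 0.46 ± 0.12 (adjusted p = 0.00149), from 2743 and 2526 CPM to 1886 and 1959 CPM, and with the GC trend removed its change was -0.11 (adjusted p = 0.487). Mdm2, another p53 target, rose by 3.09 ± 0.13 on the log2 scale (adjusted p = 9.73e-20) in the same libraries. Rps27 itself did not pass (-0.32 ± 0.14, adjusted p = 0.06), and nor did its copy Rps27rt (-0.15 ± 0.26, adjusted p = 0.662). Rpl39l, the paralog of Rpl39, stood at 45.4 and 42.6 CPM against 31.1 and 28.4 CPM (-0.57 ± 0.22, adjusted p = 0.033), and with the GC trend removed its change was -0.14 (adjusted p = 0.621). DESeq2 did not call it (adjusted p = 0.135), and leaving out replicate 1 of control (0.153), replicate 2 of control (0.0712) or replicate 2 of PlaB (0.151) lost the call. Rps28, a small-subunit gene (chromosome 17, 33819027 to 33824562), stood at 469 and 448 CPM against 312 and 390 CPM (-0.39 ± 0.13, adjusted p = 0.0136). Without replicate 1 of PlaB its adjusted p was 0.241, and without replicate 1 of control 0.0514. Rpl3l, the muscle paralog of Rpl3, was under the count filter, and Rps12l1 had 0 counts in all libraries.

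Genes that work with the ribosome were also examined. Of 18 elongation and other TOP genes, 11 rose and 2 fell after PlaB, with a median log2 fold change of 0.39. Eef2, which moves the ribosome along the message, rose by 1.75 ± 0.15 (adjusted p = 2.48e-12), Rack1, a scaffold on the small subunit, by 1.19 ± 0.13 (adjusted p = 9.22e-10), and Fau, the source of the small-subunit protein eS30, by 0.96 ± 0.13 (adjusted p = 9.26e-08). Of 43 ribosome assembly genes, 15 rose and 17 fell (median -0.05), among them the nucleolar chaperone Npm1, which fell by 0.94 ± 0.12 (adjusted p = 4.27e-08). Rrs1 and Rpf2, which bring the 5S particle into the large subunit, changed in opposite directions, by 1.51 ± 0.19 (adjusted p = 2.69e-08) and -1.27 ± 0.13 (adjusted p = 5.89e-10).

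Day 1 aggregates were compared with PlaB-treated 2D cells, the closest treated group, in a fit of all 19 libraries. Culture form and table cannot be told apart from the groups here. Of 92 genes tested, 45 were lower on day 1, 46 did not pass, and 1, Rps19bp1, was higher (log2 fold change 1.43 ± 0.36, adjusted p = 0.00284). Over all 16304 genes tested 17.0% were lower and 21.9% higher. The median over the 92 genes was -0.81, against 0.14 over all genes. Among large-subunit genes 19 of 43 were lower, among small-subunit genes 16 of 31, and among paralogs 9 of 14.

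Among the genes with the largest falls, beside Rpl36al, were Rpl39l (-2.24 ± 0.28, adjusted p = 1.29e-06), Rpl41 (-1.87 ± 0.36, adjusted p = 2.58e-04), Rpl22l1, Rps3a1, Rpl22 and Rps27l. Rpl39l stood at 5.57, 6.58 and 6.80 CPM on day 1, below all 2D libraries. Rps4l and Rplp0, by contrast, had fold changes of 0.35 ± 0.32 (adjusted p = 0.416) and 0.07 ± 0.33 (adjusted p = 0.88). Rps4l lay at 1288, 1159 and 1080 CPM on day 1 and Rplp0 at 3060, 3098 and 3892 CPM, close to the PlaB-treated 2D cells and far above control. Fewer genes passed without replicate 1 of PlaB (24 lower) or replicate 2 of PlaB (23 lower), or with scaling by total counts (29 lower), and 70 were lower when only these 5 libraries were fitted. The single higher call, Rps19bp1, was lost without replicate 2 of PlaB (1.00, adjusted p = 0.103). Fibroblast markers were also lower on day 1 (16 of 18 tested fell), and their part in this result was not tested.

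Most of the genes were higher at the end of blastoid culture than at its start. From day 1 to day 5, 55 of 91 genes tested rose, 8 fell and 28 did not pass, while over all 15121 genes tested 25.5% rose and 25.5% fell. The median log2 fold change was 1.06, against -0.02 over all genes. In the small subunit 21 of 31 rose and none fell (28 of 31 had a positive change), and in the large subunit 25 of 43 rose and 3 fell. Scaling by total counts, which moved the median of all genes to -0.35, gave 44 rises, 10 falls and a median of 0.69 for the family. Removal of the GC trend gave 63 rises and 5 falls. Without replicate 3 of day 3, which enters the estimate of spread, 62 rose and 8 fell.

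Rps28 had the largest rise, from 165, 245 and 141 CPM on day 1 to 873, 1566 and 747 CPM on day 5 (2.61 ± 0.34, adjusted p = 3.58e-06). Rps27, which encodes a zinc-binding protein of the small subunit, rose from 253, 324 and 239 CPM to 1110, 1963 and 765 CPM (2.31 ± 0.33, adjusted p = 1.16e-05). Rpl39, at the exit tunnel of the large subunit, rose from 263, 358 and 280 CPM to 1339, 1726 and 536 CPM (2.07 ± 0.33, adjusted p = 3.67e-05). These genes are among those named for the largest rises, so a gap between their groups follows from that choice. In each of them day 5 varied more than day 1, with replicate 2 highest and replicate 3 lowest. Rps27rt rose by 2.19 ± 0.26 (adjusted p = 1.64e-06), and Rps15a, Rpl22, Rpl23 and Rpl13a rose by between 1.86 and 2.06. Rpl13a is 1 of the genes with overlapped exons. These 8 calls held when any 1 library of either day was left out.

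The falls were led by the same retrocopies that rose after PlaB. Rpl10l dropped from 45.4, 27.7 and 33.7 CPM to 3.53, 5.49 and 7.01 CPM (-2.67 ± 0.33, adjusted p = 2.48e-06). Rps4l dropped from 1288, 1159 and 1080 CPM to 155, 156 and 227 CPM (-2.65 ± 0.32, adjusted p = 1.51e-06), while Rps4x rose from 1052, 1047 and 1513 CPM to 2341, 2371 and 2826 CPM (1.13 ± 0.26, adjusted p = 0.00109). Counts of Rps4l went from 122%, 111% and 71.3% of those of Rps4x on day 1 to 6.61%, 6.57% and 8.03% on day 5. On day 1 the retrocopy thus had about as many counts as its parent, and the 2 transcripts are of similar length (943 and 975 bases).

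Rpl29 (-1.73 ± 0.34, adjusted p = 2.72e-04) and Rpl13 (-0.91 ± 0.27, adjusted p = 0.00818) of the large subunit, the stalk gene Rplp0 (-1.20 ± 0.32, adjusted p = 0.00423) and Rpl7l1 (-1.46 ± 0.29, adjusted p = 2.88e-04) also fell from day 1 to day 5. Rpl13 lost its call without replicate 1 of day 5 (-0.74, adjusted p = 0.0583) and with the GC trend removed (-0.11, adjusted p = 0.727). The fall of Rpl18 (-0.89 ± 0.32, adjusted p = 0.0271) was lost without replicate 2 of day 1 (0.0595), replicate 1 of day 5 (0.12) or replicate 2 of day 5 (0.0694), and with the GC trend removed (-0.57, adjusted p = 0.101). Rps27l (1.45 ± 0.27, adjusted p = 1.97e-04), Rpl36a (1.69 ± 0.28, adjusted p = 6.01e-05) and Rpl22l1 (1.68 ± 0.33, adjusted p = 3.38e-04) were among the rises. Rpl39l stood at 5.57, 6.58 and 6.80 CPM on day 1 and 6.85, 10.7 and 11.2 CPM on day 5. Its change (0.67 ± 0.28, adjusted p = 0.0488) was 0.26 with the GC trend removed (adjusted p = 0.482) and 0.34 with scaling by total counts (adjusted p = 0.315). The call was also lost in DESeq2 (0.0666) and without any replicate of day 1 (0.0854 to 0.199), replicate 2 of day 5 (0.144) or replicate 3 of day 5 (0.154).

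**Figure D3:**
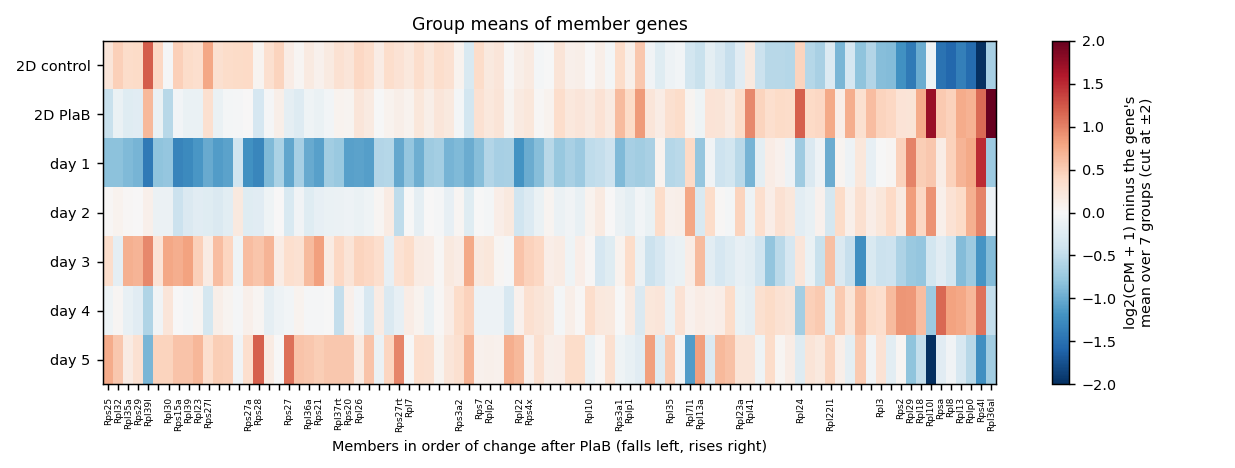
Group mean of log2(CPM + 1) of each subunit gene and paralog minus its mean over the 7 groups, for the genes tested in 2D, ordered by their change after PlaB from falls (left) to rises (right). Day 1 is low over the left and middle of the order, and at the right end control, day 3 and day 5 are low while PlaB, day 1, day 2 and day 4 are high.

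Ribosome assembly genes did not go with the subunit genes over this time. Of 43, 20 fell and 8 rose from day 1 to day 5 (median log2 fold change -0.56). Bop1, Bysl, Rrp9 and Noc4l, assembly factors of the large or small subunit or of its ribosomal RNA, fell by between 2.58 and 3.00 on the log2 scale. Of the 18 elongation and TOP genes, 7 rose and 1 fell, among them Eef1b2, a subunit of the exchange factor of elongation factor 1 (1.08 ± 0.23, adjusted p = 6.20e-04), and Pabpc1, the poly(A)-binding protein (0.96 ± 0.24, adjusted p = 0.00273). Of 15 regulators, 5 rose and 3 fell. Eif4ebp1, the mTOR-controlled repressor of cap-dependent translation, fell as well (adjusted p = 1.25e-06). Cell type markers moved as well, against 25.5% of all genes in each direction. From day 1 to day 5, 8 of 10 tested markers of the trophectoderm, the embryo's outer layer, rose and 0 fell. Of 18 fibroblast markers 15 fell and 0 rose. Of 12 pluripotency markers 7 fell and 1 rose, and of 7 tested primitive endoderm markers 4 fell and 1 rose. Their part in the rises was not tested.

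Steps between neighbouring days share a day and are read separately. From day 1 to day 2, 82 of 91 genes had a positive change (median 0.66, against 0.03 over all genes), and 8 passed, all as rises, while 0 fell. Over all genes 1.69% rose and 5.27% fell. The 8 were Rpl39l (1.69 ± 0.26, adjusted p = 4.71e-04), Rps28, Rps20, Rps27a, Rpl26, Rpl23, Rps7 and Rps3a2, a retrocopy of Rps3a1. The number depended on the library set: 46 rose without replicate 3 of day 3, 52 when only these 6 libraries were fitted, 24 by DESeq2, and only 1 without replicate 1 of day 1 or without any 1 replicate of day 2.

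From day 2 to day 3, 15 genes rose and 8 fell of 91, against 12.0% and 13.5% of all genes. The falls included those of Rps4l (-2.01 ± 0.31, adjusted p = 5.01e-04), Rps19bp1, Rpl29, Rplp0, Rpl10l, Rpl13 and Rpl18, and Rps15a (1.17 ± 0.30, adjusted p = 0.00811) and Rpl39 (1.10 ± 0.32, adjusted p = 0.0167) led the rises. Rps4l stood at 692, 890 and 909 CPM on day 2 and at 281, 244 and 87.0 CPM on day 3, with replicate 3 lowest, and without that library its change was -1.65 (adjusted p = 1.04e-04). The fall of Rpl18 was lost without that library (-0.57, adjusted p = 0.0692) and with the GC trend removed (-0.65, adjusted p = 0.106), and that of Rpl13 with the GC trend removed (-0.61, adjusted p = 0.0716). The rise of Rps15a was lost without replicate 3 of day 2 (0.0512), and that of Rpl39 without replicate 2 (0.0658) or 3 (0.0833) of day 2. The rises depended on single libraries: 31 genes rose without replicate 3 of day 3, 4 without replicate 2 of day 2, 6 without replicate 2 of day 3 and 0 without replicate 3 of day 2. Falls numbered 6 to 8 unless replicate 1 of day 3 was left out (17).

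From day 3 to day 4, 14 rose and 6 fell, against 15.6% and 12.3% of all genes. Rps4l rose by 2.10 ± 0.31 (adjusted p = 7.37e-05), back to 839, 815 and 987 CPM, and Rpl13, Rpl29, Rps2, Rpsa, Rplp0 and Rpl18 rose by between 1.18 and 1.55. These 7 rises held when any 1 library of either day was left out, and without replicate 3 of day 3 they were 1.74 in Rps4l and 0.80 to 1.28 in the others. With the GC trend removed Rpl29 (0.63, adjusted p = 0.149) and Rps2 (0.66, adjusted p = 0.0874) lost their calls. So did Rplp0 (adjusted p = 0.0534) and Rpl18 (adjusted p = 0.0769) when only these 6 libraries were fitted. Among the named falls, that of Rpl39l was the largest (-1.65 ± 0.25, adjusted p = 9.97e-05). Its call was kept without replicate 3 of day 3 (-1.73, adjusted p = 3.88e-05), and all 6 falls were kept with the GC trend removed. Rpl35a, Rps29, Rps21 and the retrocopy Rpl37rt lost their calls without replicate 2 of day 4, among other libraries (adjusted p 0.127 to 0.187). Without replicate 3 of day 3, 11 rose and 19 fell. Without replicate 1 of day 3, 22 rose and 2 fell, and 1 gene fell without replicate 2 of day 3, or replicate 2 or 3 of day 4. With the GC trend removed 6 rose and 14 fell.

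From day 4 to day 5, 8 rose and 10 fell, against 14.1% and 14.5% of all genes. Rps4l fell again, by 2.27 ± 0.31 (adjusted p = 3.97e-05), with Rpl29 (-1.63 ± 0.34, adjusted p = 0.00135), Rpl10l, Rpsa, Rpl7l1, Rplp0, Rpl18 and Rpl13. Rps27 (1.26 ± 0.32, adjusted p = 0.0061), Rps27rt (1.24 ± 0.25, adjusted p = 0.00115) and Rps28 (1.21 ± 0.32, adjusted p = 0.00785) led the rises. Without replicate 2 of day 5, Rps27 had an adjusted p of 0.0762 and Rps28 of 0.0844, and 1 gene rose. The calls for Rplp0, Rpl13 and Rpl18 were lost without replicate 1 of day 5 (0.0651, 0.0534 and 0.1), and that for Rpl13 with the GC trend removed (-0.49, adjusted p = 0.122). Rises numbered 16 without replicate 3 of day 5 or replicate 3 of day 3, 2 without replicate 2 of day 4 and 4 without replicate 3 of day 4. Falls numbered 5 without replicate 1 of day 5 and 6 without replicate 2 of day 5.

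**Figure D4:**
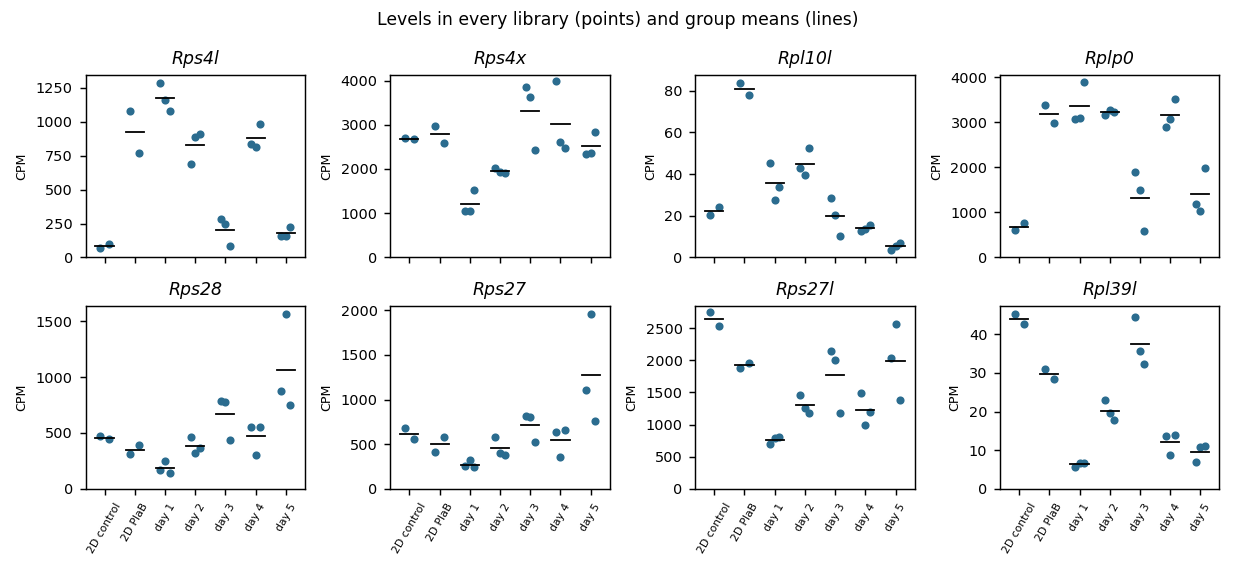
CPM of 8 genes in every library (points) with group means (lines). Rps4l and Rplp0 are low in control, on day 3 and on day 5 and high in the other groups. Rps4x, Rps27 and Rps28 are lowest on day 1, and Rpl39l is high in control and on day 3.

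The genes with the largest changes after PlaB were followed through the blastoid steps. Neighbouring steps share a day, so a high or low level on that day gives opposite signs on its 2 sides. The 7 genes with the largest rises after PlaB that were tested in blastoids had a median log2 change of -1.14 from day 2 to day 3 (all 7 below 0), 1.24 from day 3 to day 4 (6 of 7 above 0) and -1.15 from day 4 to day 5 (all 7 below 0). The 8 genes with the largest falls after PlaB had medians of 0.75 (8 of 8 above 0), -0.59 (0 of 8 above 0) and 0.56 (7 of 8 above 0) in the same steps. Over all genes tested the medians of these steps were 0.00, -0.04 and -0.02. Without replicate 3 of day 3 the medians of the first set were -0.86 and 0.99 in the steps to and from day 3, and those of the second set 0.98 and -0.74, with the same number of genes above 0 in each. Over the 76 subunit genes tested in both tables, changes after PlaB and changes from day 3 to day 4, which share no library, had a Pearson's r of 0.84 and a Spearman's rho of 0.83. Over all 10962 genes tested in both they had an r of 0.39 and a rho of 0.40. Without replicate 3 of day 3 the values were 0.87 and 0.84 for subunit genes, and 0.36 and 0.37 for 11011 genes. With the GC trend removed the values were 0.81 and 0.84 for subunit genes, and 0.20 and 0.24 for all genes. Day 3 to day 4 was the only blastoid comparison with a positive relation. For subunit genes, r was -0.84 from day 1 to day 2 and -0.82 from day 2 to day 3. It was -0.75 from day 4 to day 5 and -0.82 from day 1 to day 5. Over all genes these values were -0.36, -0.45, -0.13 and -0.24. The blastoid comparisons share libraries with each other. The points of these correlations are genes of the same libraries and not independent.

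**Figure D5:**
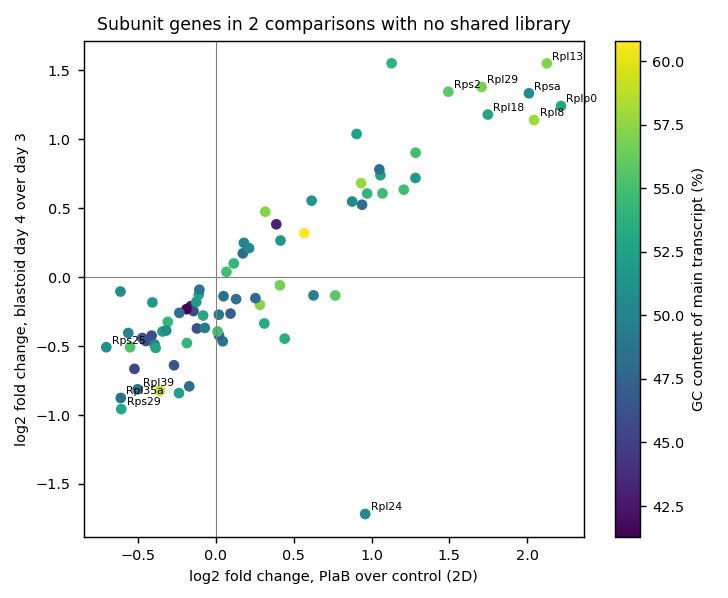
Log2 fold change of each of the 76 subunit genes after PlaB in 2D (horizontal) and from blastoid day 3 to day 4 (vertical), coloured by the GC content of the main transcript. Rplp0, Rpl13, Rpl8, Rpsa, Rpl18, Rpl29 and Rps2 lie at the upper right, and Rpl24, with few counts, lies apart at the bottom.

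Subunit genes also differed in sequence features that go with these changes. The change after PlaB had a rho of 0.39 with the GC content of the main transcript, which ranged from 41.3% to 60.8%, and of 0.40 with the number of introns, which ranged from 2 to 9. After removal of the GC trend the rho was -0.23 with GC content, 0.49 with the number of introns and 0.54 with transcript length. The GC index of the libraries was low in control, on day 3 and in 2 of the 3 day 5 libraries, and above 0 after PlaB and on days 1, 2 and 4. The group means of Rps4l and Rplp0 were also low in control and on days 3 and 5 and high in the other groups. In control the mean index was -1.24, with means of 85.0 CPM for Rps4l and 684 CPM for Rplp0. On day 1 these were 1.14, 1176 CPM and 3350 CPM. Control was the lowest group and day 1 the highest in all 3 measures, and the order of the groups between them differed in part. The part of base composition in these levels was not tested. Of the 8 genes without introns, all paralogs, Rps4l and Rpl10l rose after PlaB, 5 did not pass (Rps3a2, Rps3a3, Rps27rt, Rpl32l and Rpl6l, with log2 fold changes from -0.16 to 0.49), and Rps12l1 was at 0 counts.

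TOP messages begin with a run of pyrimidines, and the pyrimidine sequence CTTTC was sought around the start sites of these genes. Start windows from RefSeq (GRCm38.p6), with 20 bases before and 20 after the annotated start on the coding strand, were available for 68 of the 93 genes. Of 57 subunit genes with a window, 18 (31.6%) held CTTTC, against 6.44% of 27025 genes. With GAAAG, its match on the other strand and not a pyrimidine run, also counted, the shares were 36.8% and 11.8%. A match anywhere in the window was counted, also before the annotated start. Windows of 4 genes that rose and 4 that fell after PlaB are shown, with CTTTC in capitals where it occurs. In Rpl13 and Rps15a it lies before the annotated start, and so outside the message as annotated.
Rpl13 (rose; chr8:123102330-123102369, + strand): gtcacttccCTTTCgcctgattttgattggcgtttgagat
Rpl18 (rose; chr7:45718051-45718090, + strand): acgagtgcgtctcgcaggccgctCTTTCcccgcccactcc
Rplp0 (rose; chr5:115559447-115559486, + strand): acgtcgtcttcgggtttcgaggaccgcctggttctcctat
Rpsa (rose; chr9:120127746-120127785, + strand): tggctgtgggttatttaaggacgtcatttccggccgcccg
Rpl35a (fell; chr16:33056462-33056501, + strand): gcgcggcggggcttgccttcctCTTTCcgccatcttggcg
Rps15a (fell; chr7:118116128-118116167, - strand): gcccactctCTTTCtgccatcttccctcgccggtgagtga
Rps25 (fell; chr9:44407694-44407733, + strand): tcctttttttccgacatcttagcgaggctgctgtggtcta
Rpl39 (fell; chrX:37085203-37085242, - strand): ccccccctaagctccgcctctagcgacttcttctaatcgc

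CTTTC stood in windows of genes that rose and of genes that fell. The 17 subunit genes with it had a median log2 change of 0.39 after PlaB (range -0.61 to 2.13), and the 39 without it a median of 0.04 (range -0.70 to 2.22). The ranges overlapped almost completely, and a match to these letters is a description of the window only.

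Over the 7 groups, 55 of the 77 subunit genes had their lowest mean level on day 1 and 18 in control cells. The highest mean fell on day 5 for 24 genes, after PlaB for 16 and in control for 5, with 17 highest on day 3 and 11 on day 4. Without replicate 3 of day 3, 38 genes were highest on day 3, 13 on day 5, 13 after PlaB, 9 on day 4 and 0 in control, and 55 were still lowest on day 1 and 21 in control. Most subunit genes thus were lowest in day 1 aggregates, while a smaller set, with Rplp0, Rpsa and Rpl13, was lowest in untreated cells. The highest and lowest groups were not counted over all genes, so these numbers cannot be set against a share of all genes. Day 1 and control were also the groups with the highest and lowest mean GC index (1.14 and -1.24).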

How the data were processed

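The authors deposited raw read counts per gene symbol, with the 2D libraries in 1 table and the blastoid libraries in another, and column names settled which library each column held. STAR 2.7.10b, HTSeq 0.13.5 and mm10 were named per the submitters' processing notes. Not given in the sources used here are the annotation release, the strand setting and the handling of reads that fit several genes, and overlapping or near-identical genes are uncertain. Counts were filtered with filterByExpr (minimum 10, total 15) and tested with edgeR 4.0.16 (TMM, robust quasi-likelihood test), with Benjamini-Hochberg adjustment over all genes tested. The 4 libraries in 2D, the 15 blastoid libraries and, for day 1 against 2D PlaB, all 19 libraries were fitted separately. Alternatives were DESeq2 1.42.0, other scalings and filters, a GC trend removed by lowess (span 0.3), a replicate block, and leaving out libraries. GENCODE M21 (GRCm38) gave coordinates, transcripts and GC content. The fits were tested on simulated data. The genes named are the 4 marker genes, listed paralogs with their parents, the stalk genes and Rpsa, and up to 8 genes per direction and comparison with the largest change, an adjusted p under 0.05 and at least 10 CPM in the higher group. From each other list, genes were taken by the smallest adjusted p (up to 4). Of the genes this rule gives, 3 are not reported here. The members, gene lists and tests were chosen with earlier results of these data known. Same-numbered replicates did not deviate together (correlations -0.018 in 2D and -0.262 to 0.179 in blastoids), so libraries were not paired.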

Additional observations from a re-analysis of the deposited data

How the results depend on the processing

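With 2 or 3 libraries per group, counts of called genes moved with the setting and the libraries used. For the named genes, 1989 values under other settings and 1022 values with a library left out were labelled unchanged. In the same order, 117 and 170 lost their call, and 64 and 35 gained one. The unchanged values include changes of sign where neither value passed, and values with no adjusted p. Settings that only leave out paralogs or overlapped genes repeat each gene's main values. Their part of the 1989 was therefore fixed in advance. The 4 that changed direction where at least 1 of the values compared passed were those of Rplp1 and Rplp2 after PlaB. These stood at -0.797 and -0.757 with the GC trend removed and at -0.79 and -0.754 with a replicate block and the GC trend removed. Depth limits Rpl36al, Rpl24, Rps10 and Rpl3l, with at most 204 counts each over all libraries. The causes of the shifts below were not tested.

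Leaving out 1 library at a time gave 26 to 33 rises and 10 to 21 falls after PlaB, 44 to 62 rises and 6 to 9 falls from day 1 to day 5, 1 to 46 rises and 0 falls from day 1 to day 2, 0 to 31 rises and 6 to 17 falls from day 2 to day 3, 10 to 22 rises and 1 to 19 falls from day 3 to day 4, and 1 to 16 rises and 5 to 13 falls from day 4 to day 5. On day 1 against 2D PlaB it gave 0 to 2 genes higher and 23 to 63 lower. Where 1 library of a 2D group was left, it was assumed to vary like the other group. The settings without replicate 3 of day 3 in comparisons that do not use day 3 and in values over sets of genes, and the one without overlapped genes, were chosen after seeing the data.

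Removal of the GC trend gave 5 falls from day 1 to day 5, 5 falls from day 2 to day 3, 6 rises and 14 falls from day 3 to day 4, and 16 rises from day 4 to day 5. Scaling by total counts, which moved the median of all genes by more than 0.1 in several blastoid comparisons, gave 5 rises from day 1 to day 2, 13 falls from day 2 to day 3, 22 rises and 2 falls from day 3 to day 4, 5 rises from day 4 to day 5, and 2 higher and 29 lower on day 1 against 2D PlaB. DESeq2 gave 24 rises from day 1 to day 2 and 12 falls from day 3 to day 4. Without the low-count filter there were 24 rises from day 1 to day 2 and 2 genes higher on day 1 against 2D PlaB. Fits of only the libraries compared gave 52 rises from day 1 to day 2, 4 falls from day 2 to day 3, 6 rises and 2 falls from day 3 to day 4, and 2 higher and 70 lower on day 1 against 2D PlaB. Without the listed paralogs and Rps19bp1, 4 genes fell from day 1 to day 5, 5 from day 2 to day 3 and 6 from day 4 to day 5, and 0 were higher on day 1 than in 2D PlaB. When all paralogs and the genes with overlapped exons were also left out, these numbers were 4, 5, 6 and 0, with 3 falls from day 3 to day 4 and 4 rises from day 4 to day 5.

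A replicate block, run although same-numbered libraries did not deviate together, gave 1 rise from day 1 to day 2, 3 falls from day 3 to day 4 and 5 rises from day 4 to day 5. After PlaB it gave 32 rises and 20 falls. The replicate block with the GC trend removed gave 5 falls from day 1 to day 5, 5 rises from day 1 to day 2, 4 falls from day 2 to day 3, 2 rises and 10 falls from day 3 to day 4 and 6 falls from day 4 to day 5.

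The share of counts in the family was 9.752% in control and 10.88% after PlaB without mitochondrially encoded genes in the total, and 8.841% in control without Rps28 and the paralogs.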
